A study of Mus musculus with 8 samples.

Results

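The genes that guide growing axons and migrating cells were followed in Day 4 neural progenitor (NP) cultures that either carry or lack *Sox3*. A gene was included by its symbol, as a semaphorin of classes 3 to 7 (*Sema3a* to *Sema7a*), a plexin (*Plxna1* to *Plxnd1*), a neuropilin (*Nrp1*, *Nrp2*), a netrin (*Ntn1*, *Ntn3*, *Ntn4*, *Ntn5*), a netrin receptor (*Dcc*, *Neo1*, *Unc5a* to *Unc5d*) or an FLRT gene (*Flrt1* to *Flrt3*). This gave 47 transcript clusters, the array's unit of a gene, for 44 genes, out of 23410 transcript clusters with a gene symbol and 35556 in the whole value table. The 44 genes comprise 20 semaphorins, 9 plexins, 2 neuropilins, 4 netrins, 6 netrin receptors and 3 FLRT genes. No member lay on a transcript cluster shared by several symbols. *Sema4d*, *Sema6b* and *Unc5d* had a pair of transcript clusters each, of which the brighter stands for the gene, and both clusters of *Sema6b* held the same value on all 8 arrays. The dimmer clusters of *Sema4d* and *Unc5d* differed by -0.01 and -0.09 (log2) between the genotypes, and those that stand for the genes by 0.01 and -0.10.

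RNA came from R1 mouse ES cells cultured for 4 days in N2B27, which lacks serum and lets ES cells turn into NP cells. The *Sox3* null line, with GFP in place of the only *Sox3* exon, was compared with control cells that hold a conditional *Sox3* allele and are labelled *Sox3* positive. Each genotype gave 4 cultures, 2 in each of 2 independent differentiation batches, and each culture was read on its own Affymetrix mouse gene array as a log2 signal per transcript cluster. The number of ES cell clones behind each line was not stated in the labels or methods, so loss of *Sox3* and other differences between clones cannot be told apart, and p-values measure the spread between these cultures. Array medians lay between 7.63 and 7.70, no pair of arrays held identical values, and the number of arrays limits the precision. *Sox3* read between 9.73 and 9.92 on the control arrays and between 8.37 and 8.67 on the null arrays, in accord with the labels. All 14 listed neural progenitor markers, among them *Sox1*, *Sox2*, *Pax6* and *Nes*, were brighter than the level under which 95% of 1023 olfactory receptor transcript clusters lay, a log2 signal of 6.16. Olfactory receptor genes are not thought to be active in neural progenitors and stand in here for background. The deleted *Sox3* itself lay above this level on the null arrays. What this remaining signal comes from was not tested. A signal above the level is therefore not taken here to show that RNA of a gene is present. Of the 44 guidance genes 40 lay at or above this level, as did 69.9% of all transcript clusters, and *Sema3d*, *Sema4a*, *Plxnb3* and *Ntn5* lay below it.

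Semaphorins are secreted or membrane-bound cues that steer axons, mostly by repulsion, through plexin receptors. Class 3 semaphorins are secreted and in most cases bind a neuropilin, which holds the plexin in the receptor complex, whereas semaphorins of classes 4 to 7 are tied to the cell surface and mostly bind plexins directly. Netrins are secreted, laminin-related cues that attract through DCC and repel through UNC5 receptors. FLRT proteins are leucine-rich repeat proteins of the cell surface that bind UNC5 receptors and latrophilins in adhesion and repulsion. In the early neural tube these families pattern commissural axon paths and cell migration, and many are already active in progenitors.

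To determine which guidance genes differed between *Sox3* null and control NP cells, the effect of genotype was fitted with limma with batch as a further term, over all 23410 transcript clusters. Of the 44 genes, 9 passed an adjusted p of 0.05, against 1.55% of all transcript clusters. *Sox3* null cells had more RNA of 7 of them and less of 2, where the shares of all transcript clusters were 1.15% and 0.393%. At an unadjusted p under 0.05 there were 16 (13.1% of all). The rises were those of the semaphorin genes *Sema6d*, *Sema3c*, *Sema3b* and *Sema5b*, the netrin receptor gene *Dcc*, the plexin gene *Plxnc1* and *Flrt2*, with log2 fold changes from 0.32 to 0.60. Each estimate is given with its standard error as ±. The falls were those of *Sema4f* and *Sema3e*, at -0.46 and -0.34. *Sema6d*, *Dcc*, *Sema3c* and *Flrt2* also reached a fold change of 1.4, the size the study used to select genes, as did 0.32% of all transcript clusters in the same direction, and no member reached it downwards (0.111% of all). *Flrt2* had been selected by the study on these same arrays, so that its rise is not independent evidence. *Sema6d*, *Dcc* and *Sema3c* are not among the genes the study listed, so its selection and this fit were not alike. *Sox3* itself fell by 2.48-fold in this fit. The study printed a larger fall for *Sox3* and a slightly larger rise for *Flrt2*. The fold sizes therefore differ, and not only the choice of genes. What this difference comes from was not tested. In this fit 101 transcript clusters met both limits in either direction, more than the study listed. The other 35 genes had log2 fold changes between -0.26 and 0.41, and for 34 of them the 95% interval lay inside a 1.4-fold change in either direction, the exception being *Sema3d*. The median over the 44 genes was 0.01, and that of all transcript clusters was -0.00.

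**Figure D1:**
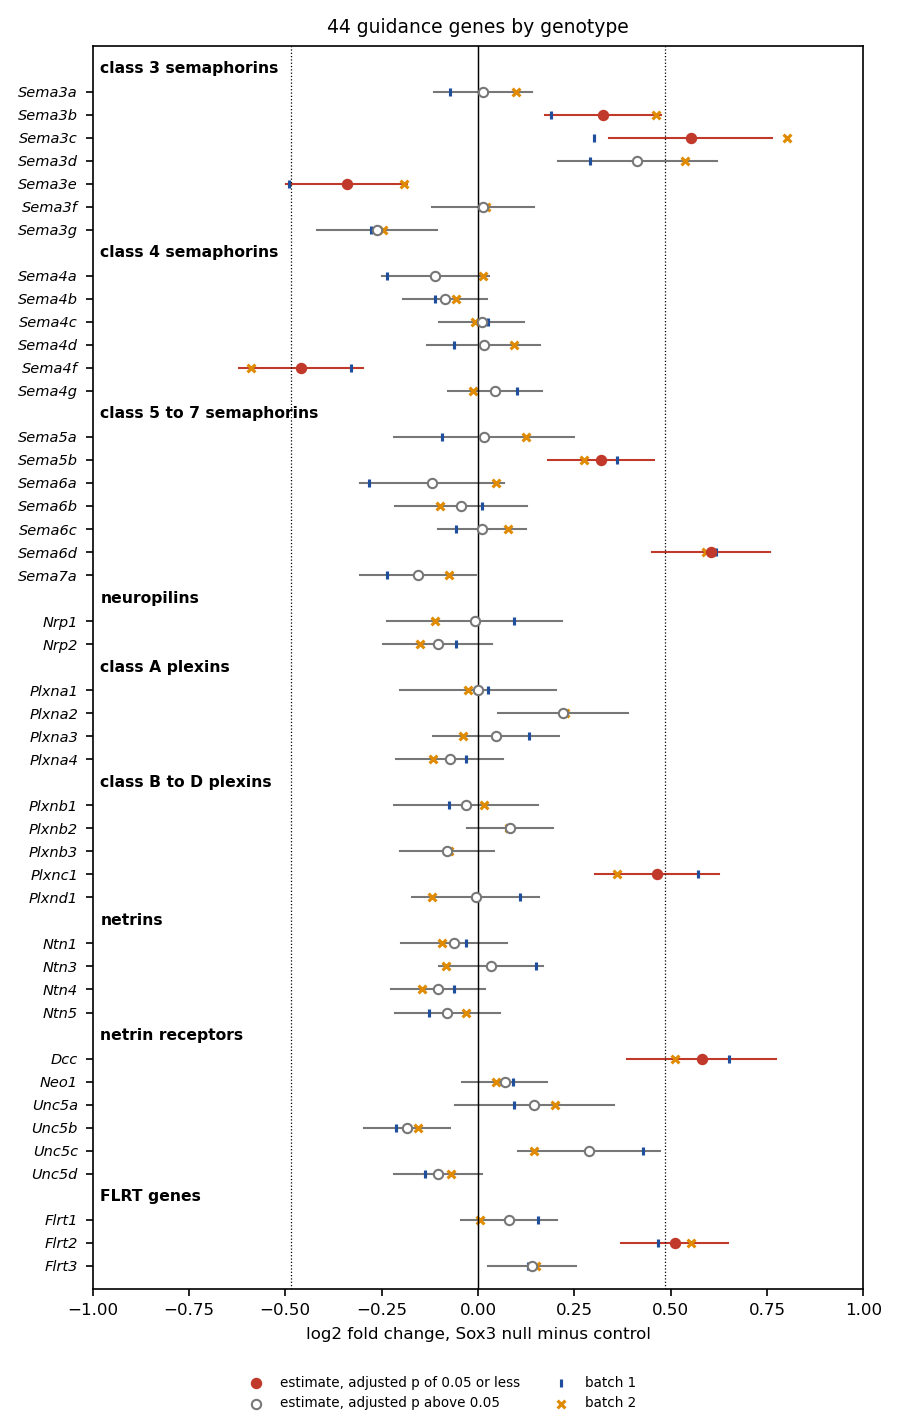
Horizontal axis, log2 ratio of *Sox3* null to control signal for the 44 guidance genes, grouped by family. Circles and lines are limma's estimates and 95% intervals from 4 arrays of each genotype, filled where the adjusted p was 0.05 or less, with a bar for batch 1 alone and a cross for batch 2 alone. Dotted lines mark a fold change of 1.4, which *Sema6d*, *Dcc*, *Sema3c* and *Flrt2* exceed.

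These counts depended on how the variance and the batch were handled. In a plain linear model, in which each transcript cluster keeps its own variance, none of the 44 genes passed, although 10 were higher and 4 lower at an unadjusted p under 0.05. In limma without the batch term none passed either, with 8 higher and 1 lower at an unadjusted p under 0.05. When all 35556 rows were fitted in limma, *Sema6d* and *Flrt2* passed and the other 7 did not. In limma without control replicate 1 or control replicate 3, 4 genes were called higher in place of 7, and without control replicate 3 the number past 1.4-fold was 2 in place of 4. The direction of all 9 genes was the same in all of these fits.

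Among the transmembrane semaphorins, *Sema6d*, whose protein signals through plexin A1, had the largest rise of the 44 genes. It read 9.09 and 9.34 on the control arrays of batch 1 and 8.66 and 8.75 on those of batch 2, against 9.87 and 9.80, and 9.20 and 9.40, on the matching null arrays. Both null arrays lay above both controls within each batch, but the null arrays of batch 2 overlapped the controls of batch 1. The rise was 1.52-fold (0.60 ± 0.07 on the log2 scale, limma adjusted p = 0.00163), with 0.62 in batch 1 and 0.59 in batch 2. *Sema5b*, a class 5 semaphorin with thrombospondin repeats, read 9.42, 9.40, 9.14 and 9.36 in control cultures 1 to 4 and 9.70, 9.84, 9.48 and 9.57 in null cultures 1 to 4, with no overlap. It rose 1.25-fold (0.32 ± 0.06 on the log2 scale, limma adjusted p = 0.0313) and missed the threshold in each fit that left out 1 array except that without control replicate 4 (adjusted p up to 0.112).

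*Sema4f*, a class 4 semaphorin, had the larger of the 2 falls. Its control arrays read 8.35 and 8.32 in batch 1 and 7.77 and 7.62 in batch 2, and its null arrays 7.94 and 8.07, and 7.01 and 7.20. Both null arrays were the lower ones in either batch. The fall was 1.38-fold (-0.46 ± 0.07 on the log2 scale, limma adjusted p = 0.0108). The other 5 class 4 genes had estimates between -0.11 for *Sema4a* and 0.04, and none passed. *Sema4a* lay just under the olfactory receptor level, with -0.24 in batch 1 and 0.01 in batch 2. *Sema6a*, which signals through class A plexins, stood at -0.12 (limma adjusted p = 0.619), with -0.28 in batch 1 and 0.05 in batch 2.

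The secreted class 3 semaphorins moved in both directions. *Sema3c*, which attracts or repels by cell type and is best known from neural crest and the heart outflow tract, read 8.92 and 9.06 on batch 1 controls and 8.29 and 8.30 on batch 2 controls. The matching null arrays read 9.34 and 9.24, and 9.19 and 9.01, so that the controls of batch 2 stood apart from the other 6 arrays. It rose 1.47-fold (0.55 ± 0.10 on the log2 scale, limma adjusted p = 0.0166), with 0.30 in batch 1 and 0.80 in batch 2. The call was lost without control replicate 1, control replicate 3 or *Sox3* null replicate 4 (adjusted p up to 0.0635). *Sema3b*, a repellent cue of the ventral midline, read 7.74, 7.71, 7.44 and 7.46 in control cultures 1 to 4 and 7.86, 7.96, 7.998 and 7.83 in null cultures 1 to 4. All null arrays were above all controls, with a rise of 1.25-fold (0.32 ± 0.07 on the log2 scale, limma adjusted p = 0.0433). *Sema3e*, which unlike the others binds plexin D1 without a neuropilin, read 8.06 and 8.22 on batch 1 controls and 7.37 and 7.38 on batch 2 controls. Its null arrays read 7.67 and 7.63, and 7.11 and 7.25, lower than the controls in each batch. The fall was 1.27-fold (-0.34 ± 0.07 on the log2 scale, limma adjusted p = 0.0431).

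The calls of *Sema3b* and *Sema3e* were close to the threshold. *Sema3b* missed it in each fit that left out 1 array except that without *Sox3* null replicate 1 (adjusted p up to 0.129), and *Sema3e* in each except that without *Sox3* null replicate 4 (adjusted p up to 0.147). With the replicate number as a block, which pairs null and control arrays of one number, their adjusted p values from limma were 0.0772 and 0.0755. Of the other class 3 genes, *Sema3d* stood at 0.41 (95% interval 0.21 to 0.62, adjusted p = 0.0617), with a mean signal below the olfactory receptor level, and *Sema3g* had -0.26 (95% interval -0.42 to -0.11, adjusted p = 0.115). *Sema3f*, a repellent that acts through neuropilin 2, had 0.01 (adjusted p = 0.961). In gene order *Sema3d* and *Sema3a* are next to each other on chromosome 5, with 3 protein-coding genes from there to *Sema3e* and 15 more to *Sema3c*, by GRCm38.p6. The neighbours *Sema3b* and *Sema3f*, 3 protein-coding genes apart on chromosome 9, likewise had unlike estimates.

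Among the semaphorin receptors, only *Plxnc1* passed. Plexin C1 is the receptor of SEMA7A, and *Plxnc1* read 8.46, 8.66, 8.55 and 8.77 in control cultures 1 to 4 and 9.12, 9.14, 8.97 and 9.07 in null cultures 1 to 4. The groups did not overlap, and the rise was 1.38-fold (0.47 ± 0.07 on the log2 scale, limma adjusted p = 0.01). Some receptors that bind SEMA6D, SEMA3E or the class 3 semaphorins had estimates close to 0. *Plxna1*, a receptor for SEMA6D, stood at -0.00 (95% interval -0.20 to 0.20), and *Plxnd1*, the receptor of SEMA3E, had -0.01 (95% interval -0.17 to 0.16). *Nrp1* and *Nrp2*, through which class 3 semaphorins bind, had -0.01 (95% interval -0.24 to 0.22) and -0.10 (95% interval -0.25 to 0.04). *Plxna2* had the next largest rise among plexins, 0.22 (95% interval 0.05 to 0.39), which missed the threshold (adjusted p = 0.237). *Plxna4* and *Plxnb2* had -0.07 and 0.08 (adjusted p = 0.698 and 0.549).

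**Figure D2:**
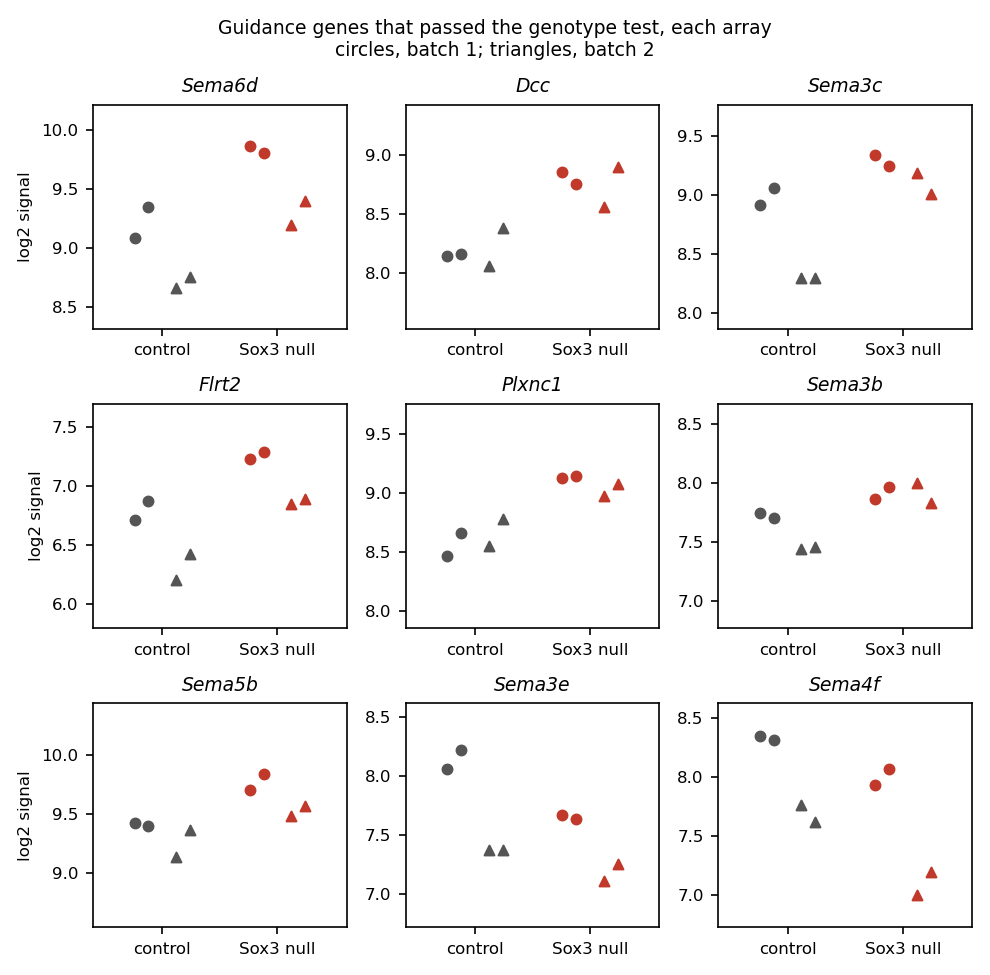
Log2 signal (vertical axis, the same span in each panel) of the 9 guidance genes that passed the genotype test, on each of the 8 arrays. Grey marks are control and red marks *Sox3* null arrays, circles batch 1 and triangles batch 2. For *Dcc*, *Plxnc1*, *Sema3b* and *Sema5b* the 4 null arrays lie above the 4 control arrays, and *Sema3e* and *Sema4f* are lower in null cells within each batch.

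Of the netrin system, the receptor gene *Dcc* rose and no ligand passed. *Dcc*, which mediates attraction of commissural axons to netrin 1, read 8.15, 8.17, 8.06 and 8.38 in control cultures 1 to 4 and 8.86, 8.75, 8.56 and 8.90 in null cultures 1 to 4. No null array fell within the control range, and the rise was 1.495-fold (0.58 ± 0.09 on the log2 scale, limma adjusted p = 0.00834), with 0.65 in batch 1 and 0.51 in batch 2. *Neo1*, which encodes the DCC relative neogenin, a receptor for repulsive guidance molecules, had 0.07 (95% interval -0.04 to 0.18). The 4 UNC5 genes, the repulsive receptors, had estimates of both signs and none passed. *Unc5c* had 0.29 (95% interval 0.10 to 0.47, adjusted p = 0.15) and *Unc5b* -0.18 (95% interval -0.30 to -0.07, adjusted p = 0.126). *Unc5d* was the one member with all null arrays below all controls, at -0.10 (adjusted p = 0.437). On its dimmer transcript cluster the null and control arrays overlapped. *Ntn1*, the main attractant of the floor plate, had -0.06 (95% interval -0.20 to 0.08), and *Ntn4* and *Ntn5* had -0.10 and -0.08 (adjusted p = 0.47 and 0.659).

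*Flrt2*, a ligand of UNC5D and latrophilins, read 6.71 and 6.87 on batch 1 controls and 6.21 and 6.42 on batch 2 controls, against 7.23 and 7.29, and 6.85 and 6.89, in null cells. The null arrays were higher in each batch, by 0.47 and 0.55, and the rise was 1.42-fold (0.51 ± 0.06 on the log2 scale, limma adjusted p = 0.00237). *Flrt3*, also a ligand of UNC5B, had 0.14 (95% interval 0.03 to 0.25, adjusted p = 0.263) with the null arrays above the controls in each batch. Of 8 listed partners of FLRT proteins, the latrophilin gene *Adgrl3* (*Lphn3* on the array) rose (0.36 ± 0.07 on the log2 scale, limma adjusted p = 0.0242) and the other 7 did not pass. *Fgfr1* and *Fgfr2*, whose proteins FLRTs also bind, had -0.19 and 0.10 (adjusted p = 0.148 and 0.455). *Adgrl3* missed the threshold in 12 of 20 alternative fits, among them those without control replicate 1, 2 or 3 or *Sox3* null replicate 1, 2 or 4 (adjusted p up to 0.508 over the 20).

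Within each batch, both null arrays lay above both controls for 10 of the 44 genes and below them for 6, against 7.01% and 5.04% of all transcript clusters. All 4 null arrays lay above all 4 controls for 4 genes and below for 1, *Unc5d*, against 2.41% and 2.19%. A difference of the genotype effect between the batches, tested with a genotype by batch term in limma, was called for none of the 44 genes and for 0% of all transcript clusters. At an unadjusted p under 0.05 there were 5 members, among them *Sema3c* (unadjusted p = 0.00246), and 3.05% of all transcript clusters. The plain linear model called none either, with 3 members at an unadjusted p under 0.05.

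Promoter sequence was looked at for the genes that passed, because SOX proteins bind short A and T rich letters. RefSeq windows of GRCm38.p6, from 250 bases before to 50 after a transcript start, were found for 35 of the 44 genes, and for 7 of the 9 that passed. The letters ACAAAG or ACAATG, searched on both strands, were in at least 1 window of 5 of these 7 genes and of 9 of the 28 others with a window, against 31.7% of all 27025 genes with one. A match is a description of these letters and not a binding site. The windows of *Sema6d* and *Flrt2*, the rises with the smallest adjusted p, are printed with the match in capitals. Those of *Plxnc1*, which holds the second form, and of the lower gene *Sema4f* follow them.
*Sema6d*, the downstream of 2 starts, chr2:124653331-124653630, plus strand: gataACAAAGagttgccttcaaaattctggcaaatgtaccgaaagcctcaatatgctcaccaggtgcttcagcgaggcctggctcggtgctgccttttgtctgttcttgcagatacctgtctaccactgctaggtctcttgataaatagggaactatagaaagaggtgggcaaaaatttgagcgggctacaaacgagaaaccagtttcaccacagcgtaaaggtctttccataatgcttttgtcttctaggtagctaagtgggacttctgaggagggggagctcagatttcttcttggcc
*Flrt2*, chr12:95691976-95692275, plus strand: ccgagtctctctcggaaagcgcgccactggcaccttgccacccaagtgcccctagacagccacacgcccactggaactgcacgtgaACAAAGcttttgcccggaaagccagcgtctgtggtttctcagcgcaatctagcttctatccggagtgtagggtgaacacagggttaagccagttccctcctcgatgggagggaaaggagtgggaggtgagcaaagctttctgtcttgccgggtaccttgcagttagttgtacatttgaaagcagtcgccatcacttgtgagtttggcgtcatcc
*Plxnc1*, chr10:94944796-94945095, minus strand: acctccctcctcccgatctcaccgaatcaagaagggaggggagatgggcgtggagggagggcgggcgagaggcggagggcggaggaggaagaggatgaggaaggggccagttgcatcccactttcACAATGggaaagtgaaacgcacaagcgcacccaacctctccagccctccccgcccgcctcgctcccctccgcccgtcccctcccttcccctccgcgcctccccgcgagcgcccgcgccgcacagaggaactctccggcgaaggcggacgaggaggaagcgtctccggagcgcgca
*Sema4f*, chr6:82939720-82940019, minus strand: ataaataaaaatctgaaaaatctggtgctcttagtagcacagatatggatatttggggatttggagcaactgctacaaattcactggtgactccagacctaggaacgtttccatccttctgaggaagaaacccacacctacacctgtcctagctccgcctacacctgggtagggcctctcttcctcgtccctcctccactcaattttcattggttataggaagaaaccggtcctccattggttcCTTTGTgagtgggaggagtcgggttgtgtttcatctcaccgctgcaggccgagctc
The match begins 246 bases before the start in *Sema6d*, 164 in *Flrt2*, 125 in *Plxnc1* and 6 in *Sema4f*, where it reads ACAAAG on the other strand. The upstream window of *Sema6d* and the windows of *Sema3e* and *Sema5b* hold neither form, and *Sema3c* holds ACAAAG 5 bases after its start.

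Other genes of the semaphorin and netrin pathways were then examined. Of 22 measured genes of semaphorin and plexin signalling, none passed in limma, where 1.55% of all transcript clusters did. At an unadjusted p under 0.05 there were 4 (13.1% of all), and the median log2 fold change of the list was 0.04. The closest were *Dpysl4*, a CRMP family gene (0.23, adjusted p = 0.161), *Farp2*, a Rac activator bound to plexin A (0.22, adjusted p = 0.192), and *Rnd1*, a small GTPase that binds plexins (0.18, adjusted p = 0.252). None of 12 measured genes of the netrin and repulsive guidance molecule (RGM) pathways passed in limma, with 2 at an unadjusted p under 0.05. Their median was 0.06. Lists this short hold too few genes for a count of 0 to differ from the share of all transcript clusters. *Nck2* and *Nck1*, adaptors that bind DCC, had 0.17 and 0.12 (adjusted p = 0.2 and 0.325), and the netrin antagonist gene *Draxin* had 0.16 (adjusted p = 0.394).

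Markers of other cell types moved with genotype on the same arrays, and their part in the results was not tested. In bulk RNA, more cells of a type and more RNA per cell cannot be told apart. Of 16 neuron markers 3 were higher in *Sox3* null cells (*Map2*, *Nhlh1* and *Neurod4*, log2 fold changes 0.47, 0.55 and 0.32) and none lower. Estimates lay above 0 for 11 of the 16 and below 0 for 5, down to -0.17. The mean of the list ran from 8.05 to 8.13 over the control arrays and from 8.14 to 8.37 over the null arrays. Of 11 measured neural crest markers 4 were higher (*Tfap2b*, *Ets1*, *Twist1* and *Pax3*, from 0.29 to 0.71) and none lower. Estimates lay above 0 for 7 of the 11 and below 0 for 4, down to -0.16. Array means of this list ran from 7.67 to 8.04 in control and from 7.91 to 8.19 in null cells. Of 14 neural progenitor markers 3 were higher (*Sox9*, *Nes* and *Zic1*) and none lower, and the estimates of all 14 lay above 0. Their array means ran from 11.04 to 11.19 in control and from 11.24 to 11.38 in null cells. Of 14 pluripotency markers *Nanog* was lower (-0.37), and *Pou5f1* and *Klf2* had -0.27 and -0.17 (adjusted p = 0.259 and 0.158). Of the 14 estimates 4 lay above 0 and 10 below. Array means of this list ran from 8.79 to 9.01 in control and from 8.79 to 8.85 in null cells, and *Prdm14* lay under the olfactory receptor level.

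Markers of mesenchyme, vessels and other germ layers were read as well, again beside shares of 1.15% higher and 0.393% lower over all transcript clusters. Of 11 fibroblast markers *Thy1* was lower (-0.51), *Col1a1* and *Col1a2* had -0.17 and -0.30 (adjusted p = 0.231 and 0.153), and *Postn*, *Lum*, *Dcn* and *Fap* lay under the olfactory receptor level. Estimates lay above 0 for 7 of the 11 and below 0 for 4. Array means of this list ran from 6.78 to 6.96 in control and from 6.71 to 6.90 in null cells. Of 10 endothelial markers *Flt1* was higher (0.49), and *Esam* and *Emcn* had -0.25 and 0.08 (limma adjusted p = 0.272 and 0.536). Estimates lay above 0 for 4 of the 10 and below 0 for 6. *Tek*, *Kdr*, *Emcn* and *Erg* lay under the olfactory receptor level. Array means of this list ran from 6.31 to 6.48 in control and from 6.29 to 6.51 in null cells. None of 12 measured mesoderm and endoderm markers passed in limma, with 1 at an unadjusted p under 0.05. *Cer1*, *Eomes* and *Gata6* had -0.17, -0.26 and -0.13. Of the 12 estimates 1 lay above 0 and 11 below. Array means of this list ran from 6.82 to 7.13 in control and from 6.77 to 6.98 in null cells. *Mesp1* and *Afp* lay under the olfactory receptor level.

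The differentiation batch moved more of these genes than the genotype did, and in 1 direction. The labels give it as a batch of differentiation and do not say how RNA or arrays were divided, so these steps and the culture cannot be told apart. Of the 44 genes, 22 were lower in batch 2 than in batch 1 at an adjusted p of 0.05 or less in limma, against 9.35% of all transcript clusters (20.2% in either direction). At an unadjusted p under 0.05 there were 27 (31.5% of all). None was higher, by limma or by the plain linear model, where 10.9% of all transcript clusters were, and none was higher at an unadjusted p under 0.05 in either. The 22 falls ran from -0.16 to -1.08 on the log2 scale, and 8 of them reached 1.4-fold, against 1.47% of all transcript clusters (1.03% upwards, 2.49% in either direction). All 4 batch 2 arrays lay below all 4 batch 1 arrays for 16 genes (9.34% of all transcript clusters), and above them for none (11.7%). The median change of the 44 genes was -0.19, and that of all transcript clusters was 0.00. The array mean over the 44 genes lay between 8.32 and 8.41 in batch 1 and between 8.02 and 8.18 in batch 2. The plain linear model called 12 genes lower and the fit over all rows 14.

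**Figure D3:**
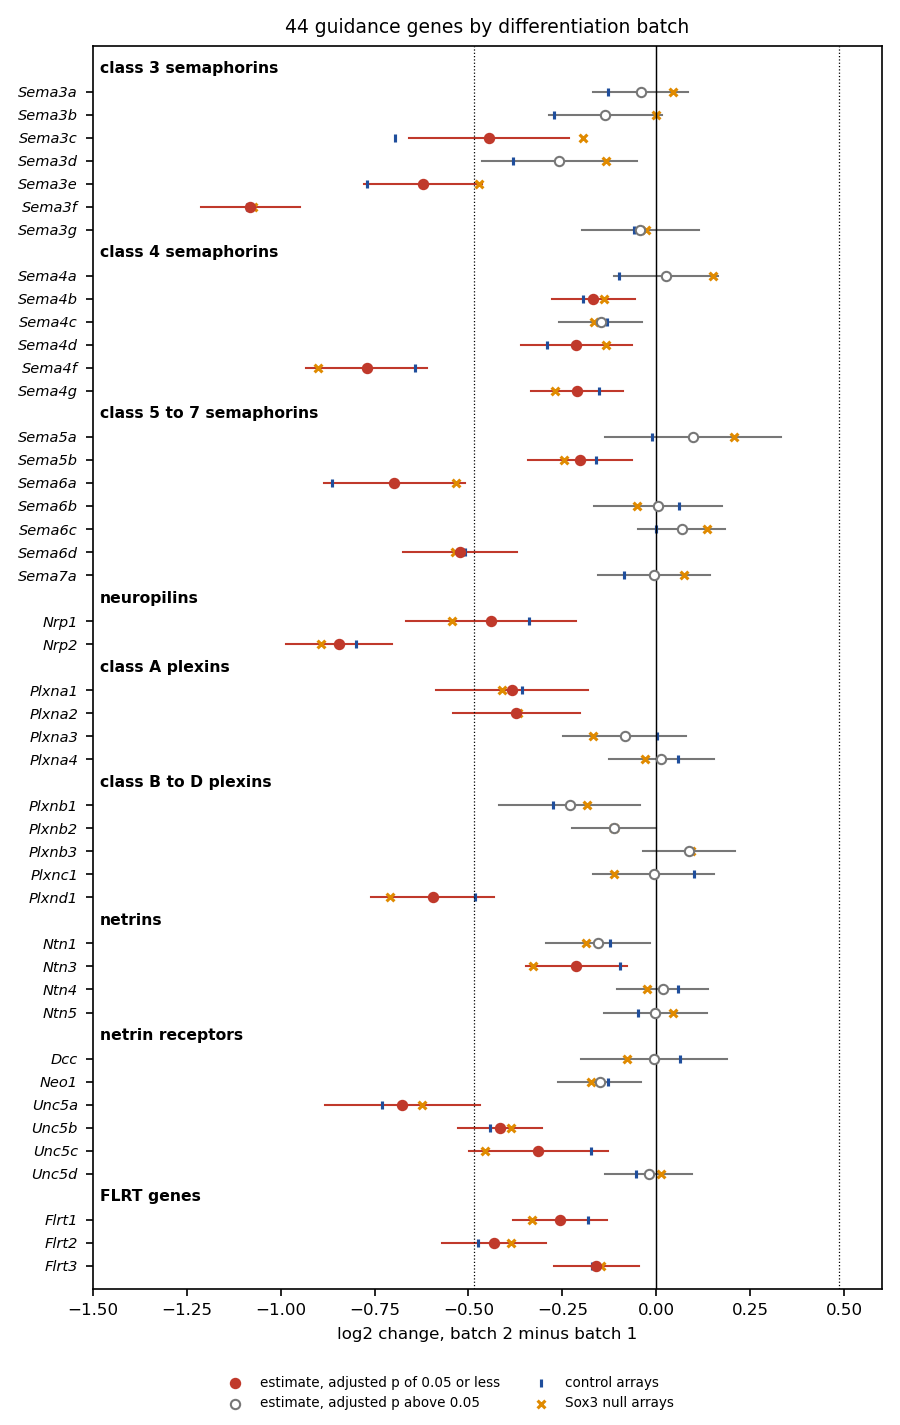
Log2 change from batch 1 to batch 2 (horizontal axis) for the 44 guidance genes, grouped by family. Circles and lines are limma's estimates and 95% intervals from 4 arrays of each batch, filled where the adjusted p was 0.05 or less, with a bar for control arrays alone and a cross for *Sox3* null arrays alone. All 22 filled circles lie to the left of 0, down to -1.08 for *Sema3f*.

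The 2 largest of these changes were those of a neuropilin ligand and its receptor. *Sema3f* read 9.80 and 9.60 on control and 9.67 and 9.74 on null arrays of batch 1, and 8.65 and 8.57 on control and 8.57 and 8.70 on null arrays of batch 2. The batches were about a log2 unit apart and the genotypes overlapped, and the change was a fall of 2.12-fold (-1.08 ± 0.06 on the log2 scale, limma adjusted p = 6.69e-06). Its receptor gene *Nrp2* read 8.21 and 8.39 on control and 8.22 and 8.27 on null arrays of batch 1, and 7.48 and 7.52, and 7.24 and 7.46, in batch 2. It was lower by 1.80-fold (-0.84 ± 0.06 on the log2 scale, limma adjusted p = 3.78e-05). *Nrp1* was lower too (-0.44), and so were *Sema3e* (-0.62) and *Plxnd1*, which encodes its receptor (-0.60). Of the transmembrane cues, *Sema4f* fell by 0.77, *Sema6a* by 0.70 and *Sema6d* by 0.52 on the log2 scale, and of the class A plexins, which bind class 6 semaphorins, *Plxna1* fell by 0.38 and *Plxna2* by 0.37. *Plxna3* and *Plxna4* had -0.08 and 0.01 (limma adjusted p = 0.501 and 0.923).

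**Figure D4:**
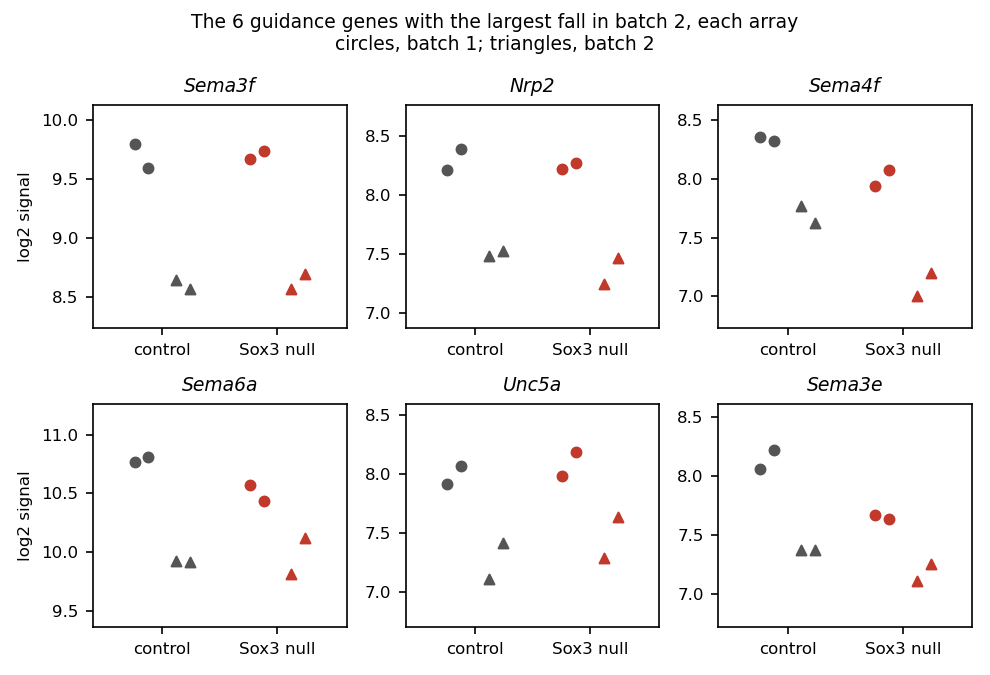
Log2 signal (vertical axis, the same span in each panel) of the 6 guidance genes with the largest falls from batch 1 to batch 2, on each of the 8 arrays. Grey marks are control and red marks *Sox3* null arrays, circles batch 1 and triangles batch 2. In all 6 panels the triangles lie below the circles, and for *Sema3f* the genotypes overlap within each batch.

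In the netrin system, 3 of the 4 UNC5 receptor genes differed by batch while the attractive receptor did not pass. *Unc5a* was lower in batch 2 by 0.68 on the log2 scale, *Unc5b* by 0.42 (adjusted p = 3.53e-04 from limma) and *Unc5c* by 0.31, whereas *Dcc* had a change of -0.01 (adjusted p = 0.969). *Ntn3* was the one netrin gene to pass, at -0.21 (adjusted p = 0.0308 from limma). All 3 FLRT genes were lower, *Flrt2* by 0.43 (adjusted p = 9.35e-04 from limma). Of the 9 genes that passed for genotype, 6 were also lower in batch 2 (both calls held for 0.812% of all transcript clusters), and *Dcc*, *Plxnc1* and *Sema3b* did not pass there. Of the 6, *Flrt2*, *Sema3c*, *Sema5b* and *Sema6d* were higher in *Sox3* null cells, a combination met by 0.427% of all transcript clusters. Leaving out 1 array at a time, 15 of the 22 batch calls held in all 8 fits. The calls of *Flrt3*, *Sema4b*, *Sema4d*, *Sema4g*, *Sema5b*, *Unc5c* and *Ntn3* were lost in 4 to 7 of the 8 fits. Leaving out any of the 8 arrays ended at least 2 of them. *Sema4d* also lost its call when the clusters of a gene were averaged, and its dimmer cluster had a batch change of -0.02.

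The same marker lists were read by batch. Over all transcript clusters 9.35% were lower in batch 2 and 10.9% higher, and counts of 1 or 2 genes in a list are near these shares. Of the 11 neural crest markers 6 were lower in batch 2 and 1 was higher, and their array means ran from 8.03 to 8.19 in batch 1 and from 7.67 to 7.99 in batch 2. Of the 14 neural progenitor markers 5 were lower and 2 higher, of the 16 neuron markers 2 lower and 4 higher, and of the 14 pluripotency markers 5 lower and 2 higher. Neuron marker means ran from 8.05 to 8.20 and from 8.08 to 8.37. Of the 12 mesoderm and endoderm markers 3 were lower, of the fibroblast markers 3 and of the endothelial markers 2, with none higher. Their part in the batch results was not tested. Of the 22 genes of semaphorin and plexin signalling 8 were lower and 2 higher, of the 12 genes of the netrin and RGM pathways 4 were lower and none higher, and of the 8 FLRT partners 5 were lower and none higher.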

How the data were processed

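Day 4 NP cultures of 2 genotypes were measured on Affymetrix mouse gene arrays, 4 arrays per genotype in 2 differentiation batches. The authors deposited log2 signals, already normalized and summarised per transcript cluster. Partek is the one tool in the submitters' processing notes. How signals were normalized and summarised, and on which genome build, was not given in the sources used here. Such steps can shrink small differences and dim signals. Methods and labels differ on whether ES cells were kept on feeder cells or gelatine.

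Symbols came from the platform annotation, and all 47 member symbols are unchanged in GRCm38.p6. All 23410 with a symbol entered 1 fit in limma 3.58.1 (R 4.3.3), with genotype and batch as terms, the factors of the study's own model, and p-values were adjusted by Benjamini-Hochberg over all of them. A gene passed at an adjusted p of 0.05 or less. A probe's signal also depends on its sequence, so signals of single genes were not compared with each other. They were set only against the olfactory receptor level and, as a filter, the median signal, both rough guides. The steps were tested on simulated data.

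The members and lists were chosen with earlier results of these data known. The text names *Sox3*, *Flrt2*, every member that passed for genotype, in each family the 2 smallest p-values for genotype and the smallest for batch, and 3 genes of each list. *Sema3a*, *Sema3d*, *Sema3g*, *Sema4b*, *Sema4d*, *Sema4g*, *Unc5a*, *Unc5c*, *Unc5d*, *Ntn1*, *Neo1*, *Plxna1*, *Plxna3*, *Flrt1*, *Pax3* and markers given only as above or below the olfactory receptor level fall outside this rule, as do the genotype values of *Sema3f*, *Sema6a* and *Plxnd1* and the batch values of *Sema3e*, *Sema3c*, *Sema6d*, *Nrp1*, *Dcc*, *Plxna4* and *Plxnc1*, and were picked with their values already seen. Arrays with the same replicate number correlated in their deviations from genotype means (r from 0.392 to 0.678), and arrays of one number share a batch. After batch was removed r was -0.324 in batch 1 and 0.305 in batch 2. Of the listed genes, some were not analysed here, among them *T*, *Rhod*, *Ntng2*, *Ptk2* and *Pak1*. Alternatives were other rows, filters on dim clusters, variance estimates, renormalization, averaging of clusters, other treatments of batch and replicate number, each batch or genotype alone, and leaving out each array.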

Additional observations from a re-analysis of the deposited data

Results flagged for a closer look

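In a group of 4 arrays, 1 array stood apart for 2 named genes. *Ntn4* had its lowest control array away from the other 3, with a gap of 0.838 of the group's range, and *Plxna4* had 1 null array apart from the other 3, with a gap of 0.863. Chance gives such a gap in about 1 of 20 groups, and 48 groups were examined.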

How the results depend on the processing

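The sign of the 9 genotype calls and 22 batch calls did not turn in any alternative fit. Of the 7 genes higher and 2 lower by genotype, with 4 past 1.4-fold, the fit over all rows called 2, 0 and 2, batch as a random block 2, 0 and 1, batch 1 alone 0, 0 and 0, and batch 2 alone 1, 0 and 1. The 2 genes called higher were *Sema6d* and *Flrt2* over all rows, and *Dcc* and *Plxnc1* with batch as a random block. The plain linear model and the fit without a batch term called 0, 0 and 0. Unadjusted p values under 0.05 numbered, higher and lower, 11 and 4 over all rows, 10 and 4 in both the random block and the plain model, 8 and 1 without batch, 10 and 7 in batch 1, and 8 and 2 in batch 2. A repeated quantile normalization and the fit above the median signal, which kept 26 members, each called 1 gene lower. With the replicate number as a block 6 were higher and 1 lower, and no call but those of *Sema3b* and *Sema3e* changed. Leaving out 1 array gave 4 to 6 higher, 1 to 2 lower and 2 to 5 past 1.4-fold. Of the 22 genes lower in batch 2, all rows called 14, the plain model 12, control arrays alone 12 and *Sox3* null arrays alone 11, and leaving out 1 array 15 to 21. The cause of these changes was not tested, apart from the fewer arrays or genes in some fits.

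Some estimates near 0 changed sign. Without 1 array, genotype estimates ran from -0.0918 to 0.0972 for *Nrp1*, -0.0817 to 0.0898 for *Plxna1*, -0.0546 to 0.0623 for *Plxnd1* and -0.0253 to 0.0561 for *Sema3f*, and batch estimates from -0.0854 to 0.0739 for *Dcc* and -0.0725 to 0.0343 for *Plxnc1*. In batch 1 alone *Nrp1* had 0.0942, *Plxna1* 0.0249 and *Plxnd1* 0.108, and in batch 2 alone *Sema4a* had 0.0139, *Sema6a* 0.046 and *Eomes* 0.0744. After quantile normalization *Nrp1* had 0.009 and *Sema3f* -0.0152 by genotype, and *Dcc* 0.0199 and *Plxnc1* 0.0103 by batch. In control arrays alone *Dcc* and *Plxnc1* had 0.0626 and 0.0987 by batch. What can be said of *Sema3d*, *Sema4a*, *Plxnb3* and *Ntn5* is limited by their dim signals.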
